A study of Mus musculus with 50 samples.

Results

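The comparison of old with young liver RNA rested on 8 of the 50 samples of the series, chosen by their labels: gene counts of 4 livers from old mice and 4 livers from young mice. All came from untreated C57BL/6 mice, and the liver was frozen before RNA extraction. The study's methods give the mice as female. The young mice were 2.5 months old and the old mice 23 to 25 months old. The labels number the libraries within a group and do not say that each came from its own animal, so p-values measure the spread between these libraries. Each library held 20168075 to 26676371 counts on genes. Levels are given as CPM, the counts of a gene per mega-count of its library, whose size was scaled by edgeR's TMM factor, with libraries in the order of replicates 1 to 4. In bulk tissue, fewer cells of a type cannot be told apart from less RNA per cell.

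The liver is built mainly of hepatocytes, which make most plasma proteins, handle sugar, fat and amino acids, and clear drugs and hormones. These tasks are divided along the lobule, from the periportal zone, where blood enters, to the pericentral zone, where it leaves. In rodents the pattern of growth hormone release acts through STAT5 in hepatocytes and sets a large group of genes that differ between males and females. Between the hepatocytes lie sinusoidal endothelial cells, stellate cells and Kupffer cells, the resident macrophages, and blood leukocytes can enter the tissue.

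The labelled tissue was checked against its markers. The hepatocyte genes Alb (albumin), Ttr, Apoa1 and Cps1 were abundant in every library, and none of the 4 was called different. The summed level of 12 kidney genes was at most 0.454 CPM in young and 0.578 CPM in old livers. The Y-linked transcripts Ddx3y, Eif2s3y, Kdm5d and Uty had 0 counts in all 8 libraries, and Xist, made from the inactive X, was present at 87.3 to 481 CPM. Young replicate 4 and old replicate 1 stood apart from the other 6 libraries. Relative to the other libraries their levels fell with transcript length, with a slope of −0.182 and −0.351 (log2 CPM per doubling of length) against 0.0475 to 0.135 in the others. The part of this in the results was not tested beyond leaving both libraries out and removing the length trend.

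Old and young livers differed in a limited set of genes. Of 12537 genes tested with edgeR's quasi-likelihood test, 212 (1.69%) were higher and 55 (0.439%) lower in old liver, 2.13% in all. Such called genes had an adjusted p (Benjamini-Hochberg) under 0.05 and changed more than 2-fold. In 208 of the higher and 54 of the lower genes the old and young libraries did not overlap, where 6.05% and 3.9% of all genes did not overlap in these directions. The calls rest on the same libraries, so this adds no separate support. The median log2 fold change of all genes was 0.00349. Without the 2 libraries that stood apart, 257 genes were higher, 163 of them among the 212, and 56 were lower, 41 of them among the 55. The calls depended on the processing and on single libraries. Only 34 higher and 24 lower genes kept theirs in all 15 alternative analyses. With 1 library left out 71 to 252 of the 267 were still called, and with the replicate number as a block 136 were. The libraries whose removal ended a call are therefore given with the main genes. All 267 kept their direction in all 15 alternatives. Of the higher genes 51, and of the lower genes 18, were members of the 47 gene lists used below.

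**Figure D1:**
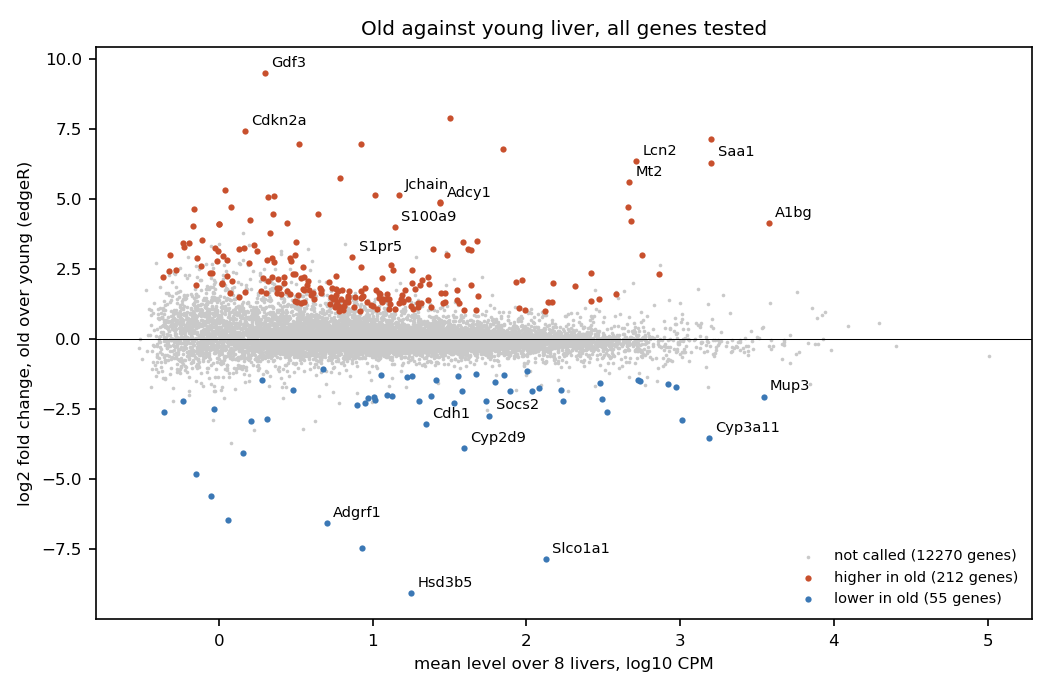
Each point is 1 of the 12537 genes tested, with the mean level over the 8 livers (log10 CPM) on the horizontal axis and the edgeR log2 fold change of old over young on the vertical axis. Colour marks the 212 genes higher and the 55 genes lower in old liver, and Slco1a1 and Hsd3b5 lie lowest, at −7.84 and −9.06.

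Most genes known to be made more in male than in female liver were lower in these old females. Of 18 such genes 15 were tested, and 10 were lower and 0 higher in old liver, against 0.439% lower among all genes. Their median log2 fold change was −1.87, and in 12 of the 15 every old library lay below every young one, against 3.9% of all genes. The call held in all 15 alternatives for 8 of the 10. The summed level of the list was 1602, 3176, 5028 and 3414 CPM in young and 825, 524, 838 and 667 CPM in old livers.

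Slco1a1 is an organic anion transporter of the hepatocyte membrane (chromosome 6, 141907282 to 141946962, GRCm38). Its level was 132, 295, 398 and 244 CPM in young livers and 1.05, 1.19, 0.960 and 1.43 CPM in old livers. The groups lay far apart, and all 4 old livers were alike (log2 fold change −7.84, standard error 0.39, edgeR adjusted p 5.73e-06). The 250 bases before its start (chr6:141946963-141947212, minus strand, RefSeq, GRCm38.p6) are shown because chromatin at this promoter is described further on. None of the 4 motifs searched was found in them, so no base is in capitals:
Slco1a1: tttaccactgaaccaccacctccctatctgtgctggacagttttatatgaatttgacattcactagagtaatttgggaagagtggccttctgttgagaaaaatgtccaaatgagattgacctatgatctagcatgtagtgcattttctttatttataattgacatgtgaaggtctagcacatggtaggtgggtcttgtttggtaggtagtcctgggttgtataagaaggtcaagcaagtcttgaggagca

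Hsd3b5, a steroid dehydrogenase of male mouse liver (chromosome 3, 98618634 to 98630252), had 10.8, 46.9, 58.9 and 25.9 CPM in young livers. Old livers had 0, 0.132, 0 and 0.0771 CPM, so that it was close to absent in all 4 (log2 fold change −9.06, standard error 0.75, edgeR adjusted p 0.000295). Cyp2d9, a P450 that hydroxylates testosterone (chromosome 15, 82433437 to 82456845), had 59.9, 70.3, 76.2 and 86.7 CPM in young and 3.47, 7.29, 2.69 and 6.36 CPM in old livers. Mup20, a major urinary protein of male mice, fell from 53.5 to 141 CPM to 15.9 to 26.3 CPM (log2 fold change −2.19, standard error 0.29, edgeR adjusted p 0.00471). Serpina1e, a form of the protease inhibitor alpha-1 antitrypsin, fell from 535 to 3463 CPM to 113 to 421 CPM, a call lost without young replicate 2, 3 or 4 or without old replicate 2 or 4. The glucuronosyltransferase genes Ugt2b1 and Ugt2b38 fell with log2 fold changes of −1.56 and −1.32, and Susd4, Selenbp2 and Nudt7 with −2.83, −2.26 and −1.82. Of these 5, the call of Susd4 was lost without young replicate 2, 3 or 4 or without old replicate 2 or 3. Cyp2d9, Mup20, Serpina1e and the Ugt2b genes belong to families of close copies among which reads can be misplaced, so their levels are uncertain.

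Genes known to be higher in female liver did not move as 1 block. Of 22 such genes 21 were tested, and 5 were higher and 0 lower in old liver by edgeR (background 1.69% higher), with a median log2 fold change of 0.51. DESeq2 called 7 higher and 2 lower, and 12 had an unadjusted edgeR p under 0.05. A1bg, a secreted glycoprotein (chromosome 15, 60896859 to 60923012), stood at 153, 439.6, 965 and 54.5 CPM in young and at 11670, 8335, 3283 and 5297 CPM in old livers. Every old liver was above every young one, and the young livers themselves spanned a wide range (log2 fold change 4.15, standard error 0.80, edgeR adjusted p 0.0252). The call was lost without young replicate 1 or 2. Prom1, a membrane glycoprotein that also marks bile duct cells, rose from 2.92 to 8.08 CPM to 26.3 to 42.0 CPM (log2 fold change 2.48, standard error 0.30, edgeR adjusted p 0.00279). The P450 genes Cyp3a41a and Cyp3a44, close copies of each other, rose with log2 fold changes of 1.64 and 2.35, and the call of Cyp3a44 was lost without young replicate 2 or 3. The fifth called member was Sult2a1, which adds sulfate to steroids and bile acids, at 29.5 to 227 CPM in young and 578 to 1770 CPM in old livers, a call lost without any one young library or without old replicate 2 or 3. Other female-biased genes had log2 fold changes of the opposite sign and were not called by edgeR, among them Cyp2b13 (−1.84) and Sult3a1 (−1.64). DESeq2 called Sult3a1 lower (DESeq2 adjusted p 0.0156). The 250 bases before the start of A1bg (chr15:60921271-60921520, minus strand, RefSeq, GRCm38.p6) are shown because they hold the letters of a STAT5 motif (TTCNNNGAA) and of a CEBP motif (TTGCNNAA), given in capitals. RefSeq places this start inside the longer GENCODE gene span given above, so the window lies within that span:
A1bg: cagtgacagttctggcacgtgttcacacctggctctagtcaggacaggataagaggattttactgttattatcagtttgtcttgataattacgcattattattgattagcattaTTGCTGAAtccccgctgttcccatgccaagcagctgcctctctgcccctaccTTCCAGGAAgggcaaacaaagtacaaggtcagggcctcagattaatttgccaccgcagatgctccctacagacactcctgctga

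In the growth hormone and IGF axis, 2 of 15 tested genes were called by edgeR, Socs2 lower and Socs3 higher (background 0.439% lower and 1.69% higher). Socs2, an inhibitor that growth hormone itself induces (chromosome 10, 95385362 to 95417180), had 68.4, 118, 124 and 87.9 CPM in young and 19.7, 18.3, 14.4 and 7.90 CPM in old livers. All old livers were far below all young ones (log2 fold change −2.72, standard error 0.30, edgeR adjusted p 0.00153). Socs3, an inhibitor induced by interleukin 6 signalling, rose from 1.85 to 4.89 CPM to 6.94 to 53.6 CPM, and its call was lost without any one young library or without old replicate 3. Without both libraries that stood apart the list had 0 higher and 2 lower calls, with Socs3 at an edgeR adjusted p of 0.0762. The growth hormone receptor Ghr (453 and 528 CPM as young and old means), its transcription factor Stat5b (79.2 and 71.6 CPM) and Igf1, the growth factor it drives (721 and 540.4 CPM), were not called.

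**Figure D2:**
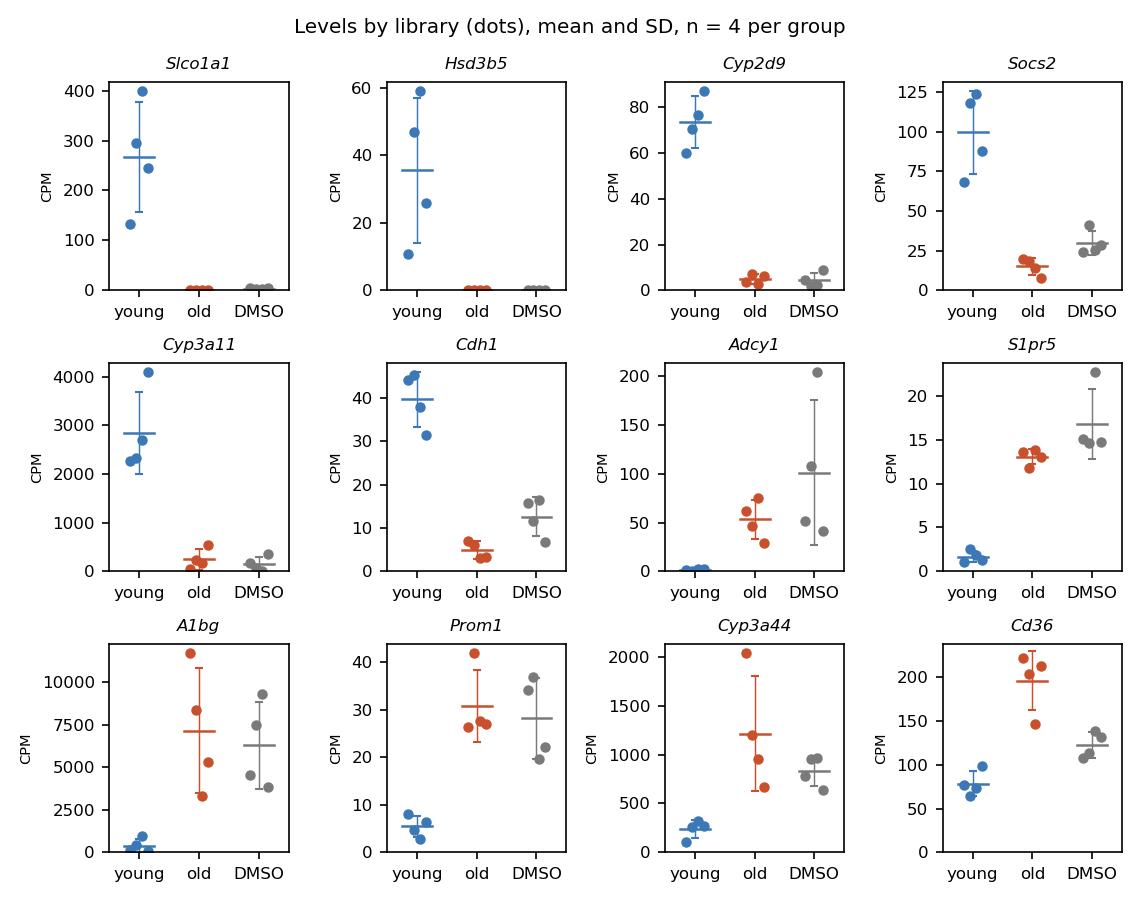
Level of 12 genes (CPM, vertical axes) in young livers, old livers and livers of DMSO-treated old mice, with 1 dot per library, a line at the mean and bars of 1 SD (n = 4 per group). Slco1a1, Hsd3b5, Cyp2d9, Socs2, Cyp3a11 and Cdh1 are lower in every old than in every young liver, and Adcy1, S1pr5, A1bg, Prom1, Cyp3a44 and Cd36 are higher.

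The series holds 4 other old livers, from mice aged 20 to 21 months that received the solvent DMSO. Age, treatment and the tallies kept in their count files differ, so their values stand beside the others without a comparison. In these livers Slco1a1 had 1.84 to 4.77 CPM, Hsd3b5 0 to 0.119 CPM, Cyp2d9 1.93 to 8.73 CPM and Socs2 24.5 to 41.0 CPM. Adcy1 had 41.4 to 204 CPM, S1pr5 14.7 to 22.7 CPM and A1bg 3811 to 9275 CPM. The acute phase gene Saa1 had 117 to 328 CPM there. Of the macrophage genes described further on, Vsig4 had 17.0 to 53.4 CPM, Cd5l 56.6 to 152 CPM, Lyz2 70.4 to 192 CPM, Ccr2 1.72 to 3.65 CPM and Itgam 1.19 to 3.11 CPM. Gpnmb had 1.08 to 2.62 CPM, Trem2 1.46 to 3.48 CPM and Lpl 14.6 to 26.8 CPM.

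Several genes with the smallest p lay outside the sex-biased lists. Adcy1, an adenylate cyclase that makes cyclic AMP (chromosome 11, 7063489 to 7178506), had 1.40, 0.866, 2.27 and 2.81 CPM in young and 62.0, 46.4, 75.6 and 29.1 CPM in old livers. S1pr5, a receptor for sphingosine 1-phosphate (chromosome 9, 21242912 to 21248443), had 1.05 to 2.56 CPM in young and a narrow 11.8 to 13.9 CPM in old livers. St3gal6, a sialyltransferase, rose from 6.82 to 7.73 CPM to 20.2 to 31.3 CPM, though 26.0% of its exonic bases are shared with Dcbld2 and reads were counted without strand. All 3 genes had old livers well above the young ones. Sult2a7, a sulfotransferase with close copies, rose from 2.88 to 8.90 CPM to 51.6 to 113 CPM. Gdf3, a ligand of the TGF-beta family, had 0 counts over the 4 young livers and 376 over the 4 old ones, at least 118-fold higher with 3 counts over the young group as the floor. Among the lower genes, the adhesion receptor Adgrf1 fell from 6.40 to 14.7 CPM to at most 0.198 CPM and the lectin-like gene Clec2h from 1.21 to 2.97 CPM to at most 0.0525 CPM. Each of these 7 genes kept its call in all 15 alternatives.

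Core metabolism held no call by edgeR in 5 lists: gluconeogenesis and glycolysis (18 genes tested), fatty acid oxidation and ketogenesis (24), cholesterol synthesis and uptake (19), bile acid synthesis and transport (16), and amino acids and the urea cycle (26). In the same order 7, 7, 1, 6 and 1 of these had an unadjusted p under 0.05, and DESeq2 called 3, all lower: G6pc, which frees glucose, and the fatty acid enzymes Ehhadh and Acsl1. Some of these lists still lay to one side of 0. In fatty acid oxidation 23 of 24 members had a log2 fold change below 0, with a median of −0.44, and among bile acid genes 15 of 16, with a median of −0.54. In 5 of the 24 and 6 of the 16 every old liver was below every young one, against 3.9% of all genes. Slc10a1, the main bile acid uptake carrier, had 947, 884, 951 and 975 CPM in young and 695, 630, 463 and 613 CPM in old livers. These levels did not overlap, and the edgeR adjusted p was 0.121. Nr1h4, the bile acid receptor FXR, had 118, 103, 151 and 148 CPM in young and 74.6, 73.0, 62.7 and 80.7 CPM in old livers, with an edgeR adjusted p of 0.0351 and a log2 fold change of −0.84, short of the fold that a call needs. The summed bile acid list was 7436 to 7856 CPM in young and 4581 to 5711 CPM in old livers. Pck1, which opens gluconeogenesis, had 2371 ± 240.4 CPM (SD, n = 4) in young and 1966 ± 510 CPM in old livers, and was not called.

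In lipid synthesis and storage 1 of 22 tested genes was called higher by edgeR (background 1.69%). Cd36, a fatty acid uptake receptor, had 76.9, 64.3, 73.9 and 98.1 CPM in young and 222, 203, 146 and 213 CPM in old livers. The groups did not overlap, and the call held in all alternatives (log2 fold change 1.32, standard error 0.20, edgeR adjusted p 0.00852). Cd36 is also made by macrophages, whose genes are described further on and were higher in old livers too, and their part in its level was not tested. Of 18 apolipoprotein and lipoprotein genes 0 were called by edgeR or DESeq2 (1 at an unadjusted p under 0.05), and 1 was lower by edgeR without both libraries that stood apart, Apoa4 (adjusted p 0.035). Apoe, a ligand for lipoprotein uptake, had 27383 and 23322 CPM as young and old means.

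Drug-metabolising P450 genes gave 4 lower and 1 higher call among 22 (background 0.439% lower and 1.69% higher), with a median log2 fold change of −0.61. Without both libraries that stood apart 2 were lower, Cyp2d9 and Cyp3a11, and 1 higher, Cyp26a1, while DESeq2 called 5 lower and 1 higher. Their summed level was 19983 to 29846 CPM in young and 10767 to 16470 CPM in old livers. Cyp3a11, a main drug-oxidising P450 of mouse liver (chromosome 5, 145854426 to 145879964), had 2275, 2335, 2693 and 4090.4 CPM in young and 44.1, 237, 167 and 545 CPM in old livers. All old livers were below all young ones (log2 fold change −3.52, standard error 0.62, edgeR adjusted p 0.0177), and the call was lost without young replicate 3 or without old replicate 3. Cyp2c54, of a P450 family that oxidises fatty acids and drugs, fell from 365 to 696 CPM to 26.8 to 192 CPM, a call lost without any one young library or without old replicate 3. Its near copy Cyp2c50 fell with a log2 fold change of −1.59, a call lost without any one young library or without old replicate 2 or 3. Cyp26a1, which breaks down retinoic acid, rose from 9.65 to 28.5 CPM to 38.2 to 93.6 CPM, a call lost without young replicate 1, 2 or 3 or without old replicate 2 or 3. Of 30 conjugation genes 2 were lower and 1 higher by edgeR (background 0.439% lower and 1.69% higher). Ugt2b1 and Ugt2b38 were lower, and Nnmt, which methylates nicotinamide, rose from 57.9 to 120.1 CPM to 171 to 674 CPM, a call lost without any one young library or without old replicate 3. Ces3a, a carboxylesterase and one of the largest falls in CPM, went from 1097 to 1638 CPM to 197 to 686 CPM, a call lost without any one young library or without old replicate 3.

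Zonation was described by 20 periportal and 24 pericentral genes, without a test between the lists. The median log2 fold change was −0.43 over the pericentral genes, with 21 of 24 below 0, and the 19 tested periportal genes had one of −0.01, with 10 below 0. Among the periportal genes 1 was called lower (background 0.439%), Cdh1, the cell adhesion protein E-cadherin (chromosome 8, 106603351 to 106670246). It had 44.1, 45.1, 37.8 and 31.5 CPM in young and 7.09, 6.14, 3.02 and 3.28 CPM in old livers. That gap was far wider than the spread within a group (log2 fold change −3.02, standard error 0.29, edgeR adjusted p 0.00088). Cdh1 is also made in bile ducts, whose markers Krt19 (3.10 and 2.16 CPM as young and old means), Krt7 (1.16 and 0.931 CPM) and Epcam (2.47 and 1.95 CPM) were not called. Of the 8 tested bile duct genes 1 was higher (background 1.69%), Prom1, 3 were above 0 and 5 below. The part of bile duct cells in the level of Cdh1 was not tested. The nitrogen-handling periportal genes Cps1, Hal and Asl had log2 fold changes of −0.23, 0.09 and 0.16 and were not called. Of the pericentral genes 1 was called lower by edgeR, Cyp2c50, and 0 without both libraries that stood apart. DESeq2 and edgeR with the length and GC trend removed each called 2 lower, Cyp2c50 and Cyp1a2, and 1 higher, Slc13a3, and 7 had an unadjusted edgeR p under 0.05. The defining pericentral enzyme Glul, glutamine synthetase, had 854, 1005, 1049 and 775 CPM in young and 639, 661, 874 and 851 CPM in old livers, which overlapped. Cyp2e1, which oxidises ethanol, had 5582 to 7938 CPM in young and 2862 to 4892 CPM in old livers, without overlap and with an edgeR adjusted p of 0.13. Among Wnt signals and receptors, which set pericentral identity, 1 of 14 was called higher (background 1.69%): Dkk3, of the Dickkopf family, rose from 1.36 to 2.87 CPM to 6.13 to 8.59 CPM, a call lost without young replicate 1.

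**Figure D3:**
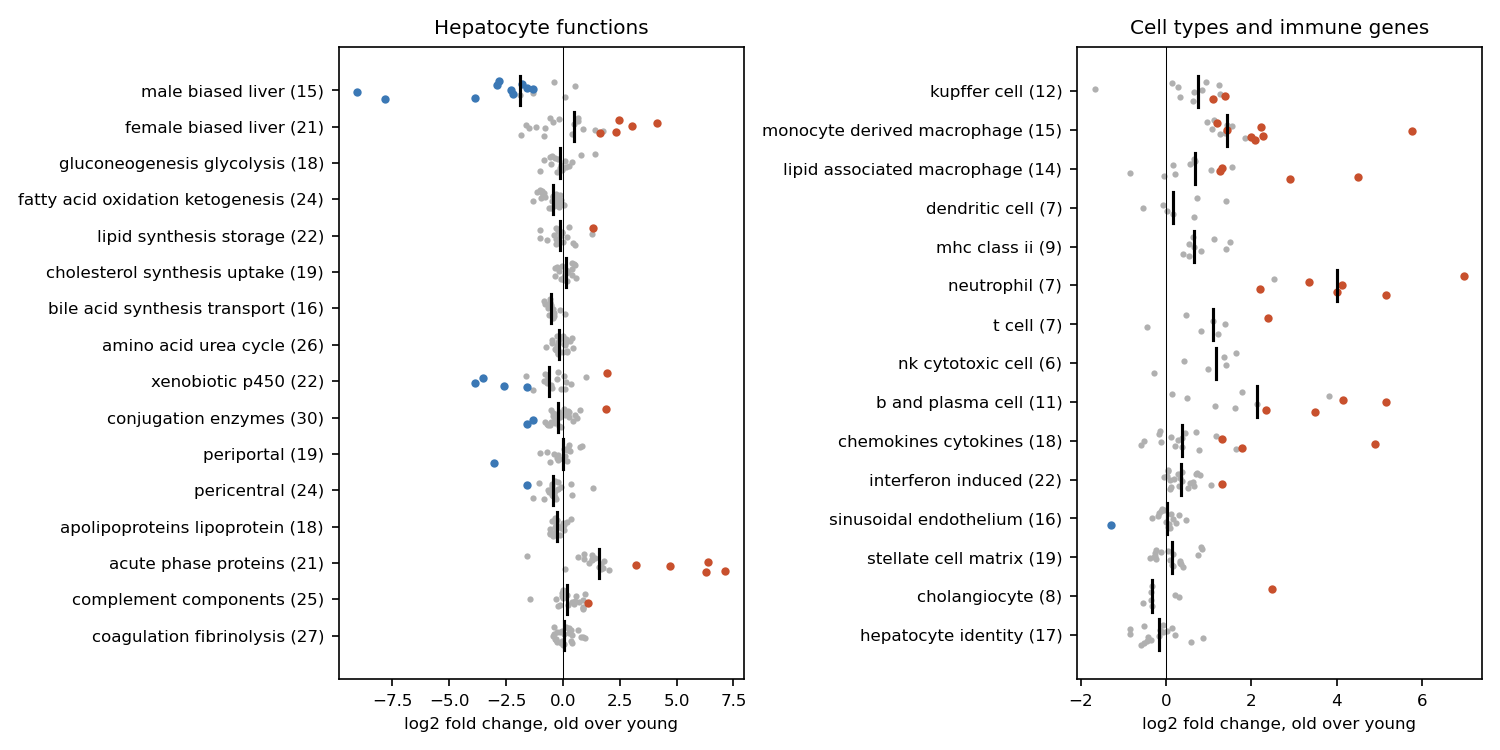
The edgeR log2 fold change of old over young (horizontal axis) for each tested member of the lists on the vertical axis, with the number tested in brackets. Coloured points are called genes, grey points are not called, and the black bar is the list median. Male-biased genes lie to the left, with a median of −1.87. The tested neutrophil genes lie to the right, with a median of 4.02, a set partly fixed by the minimum count.

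Secreted acute phase proteins split the old livers into 2 pairs. Of 21 such genes 5 were higher and 0 lower by edgeR (background 1.69% higher), with a median log2 fold change of 1.60 and 20 of 21 above 0. DESeq2 called 13 higher and 1 lower, edgeR with the length and GC trend removed 10 higher and 1 lower, and 20 had an unadjusted edgeR p under 0.05. Saa1, serum amyloid A, carried on lipoproteins in inflammation (chromosome 7, 46740497 to 46742980), had 45.0, 26.9, 32.6 and 53.9 CPM in young livers and 2698, 47.0, 9716 and 125 CPM in old livers. Old replicates 1 and 3 were far above all young livers, replicate 4 was above them by less, and replicate 2 lay within their range. Lcn2, which binds bacterial iron carriers (chromosome 2, 32384633 to 32388252), had 7.67 to 24.3 CPM in young and 1463, 63.7, 2482 and 81.5 CPM in old livers. Orm2, an orosomucoid, had 31.1 to 36.2 CPM in young and 801, 78.9, 2579.7 and 96.2 CPM in old livers. The same 2 libraries were the highest in both genes, and in the zinc-binding metallothioneins. Mt2 had 6.12 to 33.3 CPM in young and 1523, 145, 1848 and 128 CPM in old livers, a call lost without young replicate 1, 2 or 3. The edgeR adjusted p of the 5 acute phase genes Saa1, Saa2, Lcn2, Orm2 and Orm3 lay between 0.0222 and 0.0451, and each of these calls was lost without any one young library or without old replicate 3. The summed list was 21093 to 36061 CPM in young livers and 69263, 19603, 95534 and 21786 CPM in old livers. Without both libraries that stood apart, 2 members were higher, Saa3 and Orm3, and 1 was lower, Serpina3k. Saa1, Saa2, Orm2 and Orm3 have close copies beside them, so their shares are uncertain. Serpina3k, a protease inhibitor of the same list, had 6741 to 17631 CPM in young and 2113 to 6109.6 CPM in old livers, against the direction of the list. It was not called by edgeR with all libraries (edgeR adjusted p 0.0756), but was called lower by DESeq2 (adjusted p 0.00137), and by edgeR without both libraries that stood apart (adjusted p 0.03) and with the length and GC trend removed (adjusted p 0.0248). Neutrophil genes, described further on, were highest in the same 2 old livers, and their part in these levels was not tested. The 250 bases before the start of Saa1 (chr7:46742981-46743230, minus strand, RefSeq, GRCm38.p6) hold the letters of 1 CEBP motif, in capitals, and are shown because chromatin there is described further on:
Saa1: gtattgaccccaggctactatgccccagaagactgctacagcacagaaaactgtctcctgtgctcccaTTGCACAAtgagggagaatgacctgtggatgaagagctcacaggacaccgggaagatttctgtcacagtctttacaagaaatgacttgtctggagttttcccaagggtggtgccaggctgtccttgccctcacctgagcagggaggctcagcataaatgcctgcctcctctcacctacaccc

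Other plasma proteins gave few calls. Of 25 tested complement genes 1 was called higher (background 1.69%), C4a, which shares reads with its near copy C4b (log2 fold change 1.09), a call lost without any one young library or without old replicate 3 or 4. Of 27 coagulation genes 0 were called by edgeR or DESeq2 (2 at an unadjusted p under 0.05). The fibrinogen chain Fga had 5289 to 7139.8 CPM in young and 18533, 4559, 16753 and 6244 CPM in old livers, again highest in old replicates 1 and 3. Alb had 101200, 99689, 129050 and 163640 CPM in young and 113870, 80693, 53841 and 79925 CPM in old livers, and these overlapped (edgeR adjusted p 0.515). Of 28 carriers and hepatokines 1 was called lower (background 0.439%), Itih5, of the inter-alpha-trypsin inhibitor family, which fell from 10.6 to 25.9 CPM to 1.52 to 7.63 CPM, a call lost without young replicate 1, 2 or 3 or without old replicate 2 or 3. Of 14 tested major urinary protein genes 2 were lower by edgeR (background 0.439%), Mup20 and Mup3, with 6 members above 0 and 8 below and log2 fold changes from −2.28 to 2.16. DESeq2, edgeR without both libraries that stood apart, and edgeR with the length and GC trend removed each called 4 lower and 0 higher, and 6 had an unadjusted edgeR p under 0.05. Mup3 fell from 4042 to 8542 CPM to 764 to 2022 CPM, a call lost without young replicate 3 or 4, and its reads are hard to place among near-identical copies.

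Resident macrophages were present at both ages. Of 12 Kupffer cell genes 2 were higher and 0 lower in old liver by edgeR (background 1.69% higher and 0.439% lower), 3 were higher and 1 lower by DESeq2, and 8 had an unadjusted edgeR p under 0.05, with a median log2 fold change of 0.75. Vsig4, a complement receptor, had 61.8, 48.6, 48.6 and 68.2 CPM in young and 115, 149, 144 and 80.5 CPM in old livers. Cd5l, a secreted scavenger protein, had 100.1 to 187 CPM in young and 204 to 548 CPM in old livers. Neither gene overlapped between the groups. The call of Vsig4 was lost without young replicate 1, 2 or 3 or without old replicate 2 or 3, and that of Cd5l without any one young library or without old replicate 2 or 3. The defining markers Clec4f (212 and 328 CPM as young and old means) and Timd4 (9.61 and 12.1 CPM) were not called. The scavenger receptor Cd163 had 12.7 to 26.8 CPM in young and 2.31 to 9.27 CPM in old livers, against the direction of the list, with an edgeR adjusted p of 0.0518. Cd163 was called lower by DESeq2 (adjusted p 0.00117), and by edgeR without both libraries that stood apart (adjusted p 0.0449) and with the length and GC trend removed (adjusted p 0.0278).

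Of 15 genes of monocyte-derived macrophages, 7 were higher and 0 lower by edgeR (background 1.69% higher), 15 of 15 were above 0, and the median log2 fold change was 1.43. DESeq2 called 10 higher. Ccr2, the chemokine receptor of inflammatory monocytes, had 1.70, 0.866, 2.17 and 1.04 CPM in young and 5.20, 3.33, 10.03 and 5.86 CPM in old livers. Itgam, an integrin of myeloid cells, rose from 1.51 to 2.68 CPM to 4.59 to 19.9 CPM, and Lyz2, lysozyme, from 131 to 222 CPM to 249 to 542 CPM. Old replicate 3 was the highest in all 3 genes, and no old liver fell within the young range. The call of Ccr2 was lost without any one young library or without old replicate 3, that of Itgam without any one young library or without old replicate 2, and that of Lyz2 without young replicate 1, 2 or 3 or without old replicate 2 or 3. The other called members were Cx3cr1, Chil3, Ms4a7 and Cd68, the last a lysosomal protein of macrophages that rose from 8.02 to 15.7 CPM to 17.7 to 33.3 CPM. The call of Cx3cr1 was lost without any one young library or without old replicate 3 or 4, that of Chil3 without any one young library or without old replicate 3, that of Ms4a7 without any one young library or without old replicate 2 or 3, and that of Cd68 without young replicate 1, 2 or 3 or without old replicate 2 or 3. Without both libraries that stood apart, 6 members were called. The defining markers Ly6c2 (0.970 and 3.52 CPM as young and old means) and Itgax (1.15 and 3.09 CPM) were not called by edgeR with all libraries, while DESeq2 called both higher (DESeq2 adjusted p 0.00638 and 0.0183). Among the edgeR alternatives, Itgax was called without old replicate 1 and without both libraries that stood apart (adjusted p 0.0475 in the latter), and Ly6c2 without old replicate 4 and with the length and GC trend removed (adjusted p 0.0479 in the latter). The summed list was 231 to 351 CPM in young and 419 to 903 CPM in old livers.

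Of 14 genes of lipid-associated macrophages 4 were higher (background 1.69%). Gpnmb, a membrane glycoprotein of lipid-laden macrophages, had 0.306, 0, 0.403 and 0.0521 CPM in young and 2.36, 5.58, 3.70 and 5.67 CPM in old livers, and kept its call in all alternatives. Trem2, a lipid-sensing receptor, rose from 0.453 to 1.15 CPM to 2.51 to 9.25 CPM, a call lost without young replicate 1 or 3. Lpl, lipoprotein lipase, rose from 8.02 to 13.5 CPM to 18.8 to 37.4 CPM, a call lost without young replicate 1, 2 or 3 or without old replicate 2 or 3. The fourth, Lgals3 (galectin 3), had a log2 fold change of 1.27, a call lost without any one young library or without old replicate 2 or 3. Spp1, osteopontin, was not called (55.5 and 64.1 CPM as young and old means).

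Neutrophil genes were near 0 in young livers and varied widely among old ones. Of 13 listed, 7 were tested and 6 were higher (background 1.69%). A gene near 0 in young livers was tested only if its counts in old livers were high enough, so this share is partly set in advance. S100a9, a calcium-binding protein of neutrophil cytoplasm, had 1.22, 0.742, 2.02 and 2.55 CPM in young and 41.1, 6.73, 51.3 and 6.05 CPM in old livers. Its partner S100a8 had at most 1.25 CPM in young and 31.4, 5.18, 41.2 and 2.54 CPM in old livers. Cxcr2 and Csf3r, receptors for neutrophil recruitment and growth, had old means of 1.89 and 5.598 CPM against 0.0990 and 1.21 CPM in young livers. The summed list was 2.88 to 6.46 CPM in young livers and 106, 22.5, 181 and 15.5 CPM in old livers, so replicates 1 and 3, the highest in acute phase genes, were highest here too. The call of S100a9 was lost without young replicate 1, 2 or 3 or without old replicate 3, and those of S100a8, Cxcr2 and Csf3r without any one young library or without old replicate 3. Without both libraries that stood apart, 3 members were called, S100a8, S100a9 and Csf3r. The defining marker Ly6g had 1 count over the young and 31 counts over the old livers, most of them in old replicate 3, while the other 3 old livers had 0 to 0.132 CPM.

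B and plasma cell genes that were called were low in young livers. Of 16 listed, 11 were tested, 11 of these were above 0 and 4 were called higher (background 1.69%). Members near 0 in young livers, such as Mzb1, were tested only because of their counts in old livers, so these shares are partly set in advance. Sdc1 and Xbp1, which hepatocytes also make, had means of 329 and 461 CPM and 234 and 258 CPM in young and old livers and were not called. Jchain, which joins antibody chains, had 0.524, 0.742, 1.21 and 0.729 CPM in young and 57.1, 16.6, 30.5 and 10.7 CPM in old livers, and kept its call in all alternatives. Ms4a1 (CD20), a B cell membrane protein, rose from 0.156 to 0.907 CPM to 1.70 to 12.96 CPM, and Mzb1, a chaperone of plasma cells, from 0 to 0.573 CPM to 1.08 to 13.4 CPM. Old replicate 3 was the highest for both. The call of Ms4a1 was lost without any one young library or without old replicate 2 or 3, and that of Mzb1 without any one young library or without old replicate 3. The fourth called gene, Cd79a of the B cell receptor, rose with a log2 fold change of 2.35, a call lost without any one young library or without old replicate 2 or 3. Cxcl13, the chemokine that draws B cells, had 3.33 to 5.77 CPM in young and 10.5, 86.1, 73.8 and 7.52 CPM in old livers. Old replicates 2 and 3 stood highest for Cxcl13, another pair than for the acute phase genes, and its call was lost without any one young library or without old replicate 2 or 3.

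T and cytotoxic cell genes were near the lower limit of the counts, and Il7r was tested only because of its counts in old livers. Of 7 tested T cell genes 1 was called higher (background 1.69%), Il7r, the interleukin 7 receptor, which rose from 0.151 to 0.524 CPM to 1.31 to 1.92 CPM, a call lost without young replicate 2, 3 or 4 or without old replicate 2 or 3. The defining markers Cd3g (0.999 and 1.75 CPM as young and old means) and Cd8a (0.235 and 0.643 CPM) were not called. Of 6 tested NK and cytotoxic genes, 7 dendritic cell genes and 9 MHC class II genes, 0 were called by edgeR, with median log2 fold changes of 1.17, 0.17 and 0.66. Of these 4, 2 and 6 had an unadjusted p under 0.05, and DESeq2 called 4 higher: Gzmb and Ccl5 of cytotoxic cells, and the MHC class II genes H2-Ob and H2-DMb2. With the length and GC trend removed, edgeR called Ccl5 and H2-Ob higher (adjusted p 0.0291 and 0.0458). Of 18 tested chemokines and cytokines 3 were higher (background 1.69%). Cxcl1, a neutrophil attractant, had 0.453 to 3.15 CPM in young and 50.3, 12.8, 132 and 17.5 CPM in old livers, a call lost without young replicate 3. Ccl6 and Cxcl14 rose with log2 fold changes of 1.77 and 1.32, calls lost without any one young library or without old replicate 2 or 3. Of 22 interferon-induced genes 21 were above 0, with a median of 0.34, and 1 was called higher (background 1.69%), Oasl1 (log2 fold change 1.31), a call lost without young replicate 1 or without old replicate 3.

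**Figure D4:**
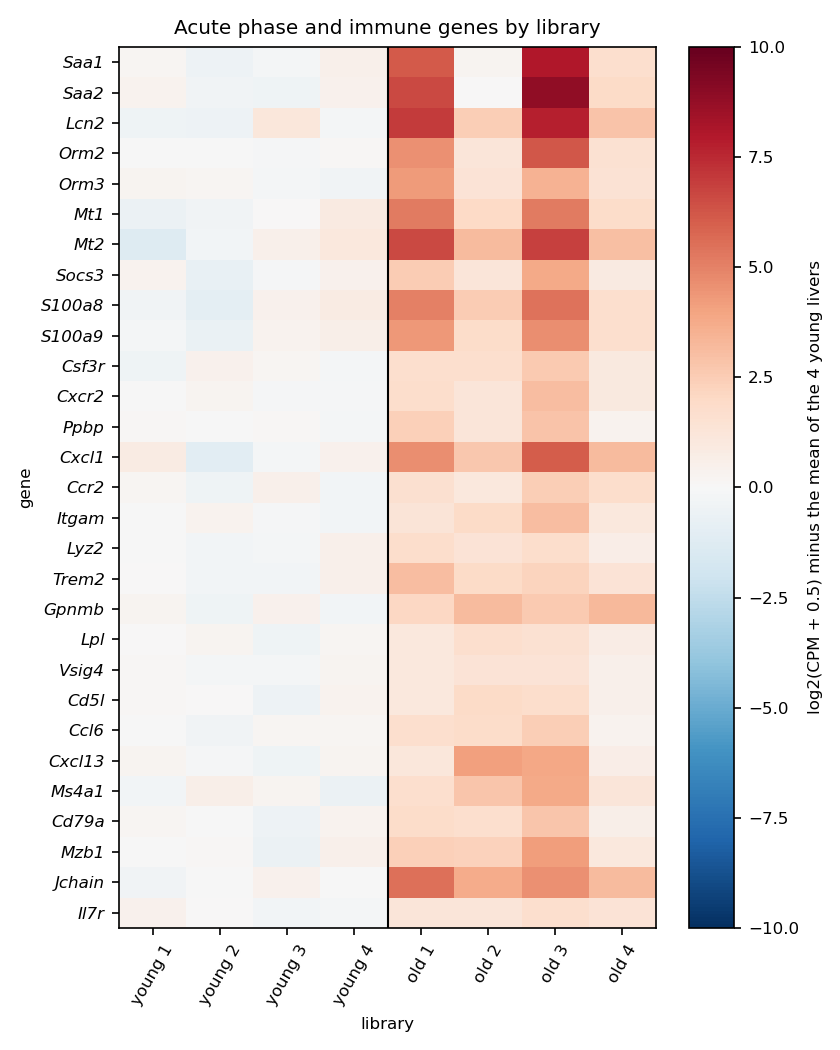
Each row is a gene called higher in old liver and each column 1 library, and colour gives log2(CPM + 0.5) minus the mean of the 4 young livers. Saa1, Lcn2, Mt2 and S100a9 are highest in old 1 and old 3 and Cxcl13 and Ms4a1 in old 2 and old 3, while Gpnmb and Jchain are raised in all 4 old livers.

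Structural cells gave few calls. Of 16 sinusoidal endothelial genes 1 was called lower (background 0.439%): Lyve1, a hyaluronan receptor, fell from 12.6 to 22.7 CPM to 5.31 to 7.56 CPM, a call lost without young replicate 1 or 3 or without old replicate 2 or 3. The defining markers Stab2 (44.5 and 45.8 CPM as young and old means) and Clec4g (106 and 111 CPM) were not called. Of 19 tested stellate cell and matrix genes 0 were called by edgeR or DESeq2 (2 at an unadjusted p under 0.05), with the matrix proteoglycan Dcn at 244 and 272 CPM. Of 17 hepatocyte identity genes 0 were called by either tool (2 at an unadjusted p under 0.05).

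Lists of cell division, senescence, and immediate early and heat shock genes gave 1 higher call each, of 12, 11 and 13 tested (background 1.69%), with median log2 fold changes of 0.31, 0.57 and 0.12. Cdkn2a, the locus of the cell cycle inhibitors p16 and p19 (chromosome 4, 89274471 to 89294653), had 1 count in all young livers together and 276 in all old ones, a ratio of levels of 260.4 with a 95% counting interval from 46.3 to 10321. Its level in old livers was 2.15, 2.97, 5.33 and 1.31 CPM, and the call held in all alternatives. Counting intervals cover counting error only. Mki67, a protein of dividing cells, had 0.857 to 1.88 CPM in young and 2.54 to 6.00 CPM in old livers, and its call was lost without any one young library or without old replicate 2 or 3. Junb, a subunit of the AP-1 factor, rose from 6.68 to 21.6 CPM to 33.5 to 69.3 CPM, a call lost without young replicate 1, 2 or 3 or without old replicate 2 or 3. Of 15 tested clock genes 0 were called by edgeR or DESeq2 (3 at an unadjusted p under 0.05).

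The kidneys of mice of the same ages were used to test where the liver differed. The test was the difference between the age effects of liver and kidney in a joint edgeR fit of 15036 genes, of which 258 (1.72%) passed an adjusted p under 0.05. Of the 267 called liver genes 71 passed. These genes were chosen on the same liver libraries that enter the test, so their count is a description and not independent of the choice. Cyp2d9, Hsd3b5 and Clec2h had kidney log2 fold changes of 1.53, 0.78 and −0.32, and liver minus kidney differences of −5.35, −9.83 and −6.19 on the log2 scale. Adcy1, at 24.9 and 22.4 CPM as young and old kidney means, differed by 5.08, St3gal6 by 1.80 and Esm1, a proteoglycan of endothelium, by 3.66. Old kidney replicate 2 held liver transcripts, with Alb at 2761 CPM against 10.2 to 47.6 CPM in the other kidneys. Without it the differences were −5.44, −9.92 and −6.23 for Cyp2d9, Hsd3b5 and Clec2h, and 5.24, 1.73 and 3.60 for Adcy1, St3gal6 and Esm1, each at an edgeR adjusted p of at most 0.00157. Slco1a1, at 0.0898 and 0.0254 CPM in young and old kidneys, did not pass (edgeR adjusted p 0.352).

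ATAC-seq, which maps open chromatin, gave a second readout from 3 young and 3 old liver libraries, and the labels do not say whether the mice were the same. A promoter was taken as open in a library when a peak lay within 1 kb of an annotated start. Of 12484 genes, 4.94% had a peak in more old than young libraries and 4.19% in more young than old. Among the 55 genes lower in old liver RNA, 27 (49.1%) had a peak in more young libraries and 2 (3.64%) in more old ones. Among 210 genes higher in old liver RNA, 57 (27.1%) had a peak in more old libraries and 15 (7.14%) in more young ones. By the mean enrichment of the strongest peak, 69.1% of the lower genes were higher in young livers, against 40.1% of all genes. For the higher genes that measure was higher in old livers in 57.1%, against 57.7% of all genes. No test was made of these peak counts.

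Single promoters followed the RNA in part. Slco1a1, whose promoter is printed above, had a peak in 2 of 3 young libraries (fold enrichment 3.14 and 3.25) and in 0 of 3 old ones, and so had Cyp3a11 (2.76 and 2.95). The myeloid genes Itgam and Csf3r had a peak in 0 of 3 young and 3 of 3 old libraries. This was so in 4 of the 210 higher genes and in 25 of all 12484 genes. Other called myeloid genes differed: Ccr2 had no peak, and Lyz2 had one in 2 young and 3 old libraries. S100a9, Cxcr2 and Gpnmb had a peak in 0 young libraries and 1 old library. Saa1, whose promoter is printed above too, went against its RNA, with a peak in 3 of 3 young (fold enrichment 3.57, 3.11 and 1.81) and 0 of 3 old libraries. Socs2, S1pr5, A1bg, Prom1 and Cd36 had a peak in all 6 libraries, Adcy1 in 1 young library and Cyp2d9 in none.

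**Figure D5:**
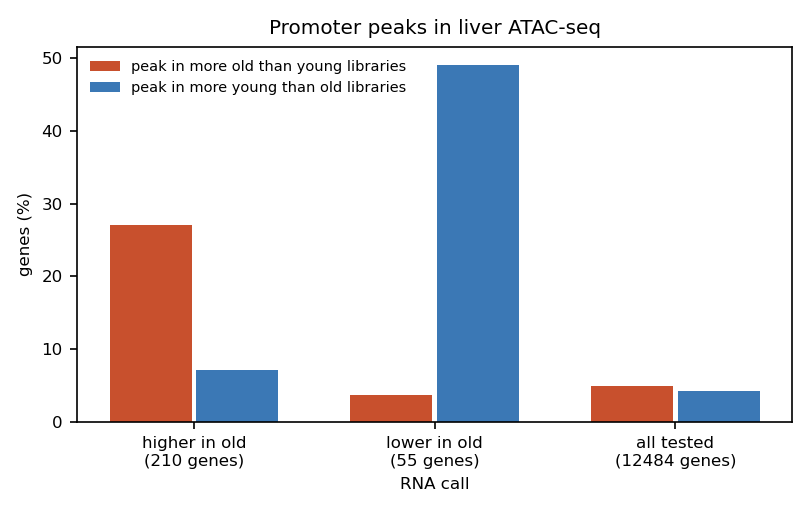
Bars give the share of genes (%, from 0) with a promoter peak in more old than young, or more young than old, liver ATAC-seq libraries, for genes called higher or lower in old liver RNA and for all genes tested. Of the lower genes 49.1% had a peak in more young libraries and of the higher genes 27.1% in more old libraries, against 4.19% and 4.94% of all genes.

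Promoter letters were compared for 4 motifs on both strands, from 250 bases before to 50 after each RefSeq start. They were STAT5 (TTCNNNGAA), the HNF4 core (CAAAGTC), CEBP (TTGCNNAA) and AP-1 (TGANTCA). Of 32851 promoters, 8.3%, 4.44%, 10.8% and 7.81% held them, in that order. The CEBP letters were in 39 of 166 higher genes (23.5%) and 8 of 40 lower genes (20.0%) that have a promoter in the table, against 10.7% of 9933 tested genes. The STAT5 letters were in 10.8% of the higher and 5.0% of the lower genes, against 8.57% of tested genes. The HNF4 letters were in 9.04% and 12.5%, against 4.94%, and the AP-1 letters in 20 of the 166 and 5 of the 40 genes, against 6.51%. Genes with several promoters count once and have more letters to match, and these shares carry no test. The windows of Slco1a1, Cyp2d9, Adcy1 and S1pr5 held none of the 4 motifs.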

How the data were processed

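Gene counts were used as deposited. The authors made these counts with HTSeq 0.12.4, ignoring strand, from alignments by HISAT2 2.2.1 (mm10) of reads cleaned by Trimmomatic 0.39, per the labels and the study's methods. The authors deposited ATAC-seq peaks called per library with MACS2 after Bowtie2 2.3.5.1, each with a fold enrichment (a ratio), a −log10 p and a −log10 q. Lines that name no gene were left out, with 6.27% to 9.31% of reads in no gene in the 8 livers. Genes passing filterByExpr (minimum count 10) were fitted with edgeR 4.0.16 in R 4.3.3 (TMM, quasi-likelihood test, old against young, no covariate), with two-sided p-values adjusted over all genes tested. The alternatives were no filter, RLE size factors, DESeq2 1.42.0, a mean of at least 1 CPM, a replicate block, each library left out and, chosen after seeing the data, both libraries that stood apart left out and a length and GC trend removed. No pair of the 12 replicate pairs agreed within sampling noise.

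Members and lists were chosen with earlier results of these data known. Genes named were the 4 markers, the 6 smallest p and the 5 largest CPM changes per direction, up to 3 called genes per list and direction (or the 2 most abundant), the 3 strongest liver against kidney per direction, and defining markers. Others were named after their values were seen, and a few genes are not reported here. Of 134 named genes, 107 had a RefSeq promoter. Coordinates are GRCm38 (GENCODE vM21).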

Additional observations from a re-analysis of the deposited data

Results flagged for a closer look

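The test of 4 libraries against Dixon's 95% critical value was run on log2(CPM + 1) in 125 groups of 4 libraries, of which chance alone flags about 1 in 20, and 2 stood out on that scale. Cyp3a44 had 1 low young liver, replicate 1 at 105.7 CPM. Prom1 had 1 high old liver, replicate 2 at 42.03 CPM. Neither library was set apart by the same test in the other groups it was run on, which did not include every named gene.

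Of the 258 genes whose age difference differed between liver and kidney in the joint edgeR fit, 8 are given here, those named for the smallest p in liver, as given markers or as the strongest liver against kidney. The difference (liver minus kidney, log2) was 5.083 for Adcy1, 1.799 for St3gal6 and 3.664 for Esm1, where the liver effect was the higher one. It was −5.355 for Cyp2d9, −7.406 for Adgrf1, −9.825 for Hsd3b5, −2.712 for Cdh1 and −6.193 for Clec2h, where the liver effect was the lower one. Without old kidney replicate 2, which held liver transcripts, the values for Adgrf1 and Cdh1 were −7.32 and −2.61.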

How the results depend on the processing

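All 267 called genes kept their direction in the 15 alternatives, while the number of calls moved with the tool and with single libraries. With DESeq2 483 genes were higher (211 of them among the 212) and 112 lower, and 745 differed between liver and kidney. With a replicate block the counts were 106 and 51, and 100 against kidney. Deviations of same-numbered young and old liver libraries from their group means correlated at −0.21, 0.33, 0.07 and −0.31. These values, mixed in sign, gave no sign that the numbers pair young with old livers. Whether the numbers pair liver with kidney was not tested. Leaving out 1 library gave 48 to 365 higher genes, 28 to 79 lower genes and 114 to 456 genes against kidney. Against 212 higher genes in the fit of all libraries, 59, 65, 48 and 105 were called higher without young replicate 1, 2, 3 or 4, 365 without old replicate 1, 124 without old replicate 2 and 76 without old replicate 3. Against 55 lower genes, 35, 34 and 28 were called lower without young replicate 1, 2 or 3. Of the 267 called genes, 71 to 252 were still called with 1 library left out. Against the 258 genes that differed from kidney, 169 and 142 genes passed without young liver replicate 1 or 4, 456 and 157 without old liver replicate 1 or 2, 129, 114 and 128 without young kidney replicate 1, 2 or 3, and 167 and 142 without old kidney replicate 2 or 4. The cause of these shifts was not tested. Other filters, size factors, thresholds and a removed length and GC trend kept both counts within 1.5 times, and the promoter counts stayed at 55 to 64 and 27 to 29 when 1 ATAC-seq library was left out. Over all named genes and alternatives, 1494 values stayed on their side of the threshold, 246 fell short of it and 10 newly passed. A change of sign in a gene not called in either fit was counted as staying. Spp1, for example, had a log2 fold change of 0.21, and of −0.093 without both libraries that stood apart. Of the list medians 24 moved by more than the spread between libraries and 665 by less.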

Other observations

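Most called genes lay outside the lists, 161 of the higher and 37 of the lower ones, and those named here were picked after their values were seen. The sterol exporters Abcg5 and Abcg8, which pump cholesterol into bile, fell together. Abcg5 had 98.4, 78.7, 80.7 and 114 CPM in young and 29.3, 36.8, 31.4 and 33.0 CPM in old livers, and Abcg8 118, 89.4, 78.6 and 118 CPM and 37.7, 45.8, 41.9 and 40.8 CPM. The old livers were alike for both genes and well below the young ones (edgeR adjusted p 0.00168 and 0.00573). Sort1, sortilin, a sorting receptor tied to lipoprotein export, fell from 9.83 to 20.1 CPM to 2.78 to 3.51 CPM. Lepr, the leptin receptor, fell from 18.1 to 28.4 CPM to 2.005 to 10.1 CPM. Postn, a matrix protein, had a log2 fold change of −1.35 while the stellate cell and matrix list held no call.

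Among the higher genes outside the lists, Sult2a3, a sulfotransferase with close copies, rose from 0.0504 to 2.45 CPM to 59.8 to 236 CPM. Noct, nocturnin, which acts on NADP(H), had 6.42, 10.3, 6.35 and 9.32 CPM in young and 23.9, 111, 75.3 and 90.4 CPM in old livers, lowest among the old in replicate 1. Hmox1, which degrades heme, rose from 16.9 to 26.0 CPM to 41.2 to 63.7 CPM and Gas6, a ligand of TAM receptors, from 40.3 to 77.1 CPM to 114 to 382 CPM. Prtn3, a protease of neutrophil granules, had at most 0.504 CPM in young livers and 124, 1.25, 124 and 2.66 CPM in old livers, with the same 2 libraries on top as for the acute phase genes. The platelet chemokine Ppbp, in the blood list, had 3.31, 1.25, 4.85 and 0.463 CPM in old livers against at most 0.306 CPM in young ones, and the haemoglobin genes Hba-a1 and Hbb-bs are listed at 0 in all 8 libraries, where Alas2, the heme enzyme of red cell precursors, had 16.8 to 28.0 CPM in young and 14.7 to 29.4 CPM in old livers. The listed 0 was therefore not read as an absence of blood. The 10 pancreas genes summed to at most 1.37 CPM and the 7 adipose genes to at most 2.60 CPM in any liver.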
